A study of Mus musculus with 18 samples.

Results

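The regions described here are genomic sites with a called binding peak for 7 of 8 domain-swapped Foxa proteins and none for the remaining protein. A missing peak shows that the site did not reach that list, not that the protein was absent from it. They were found by merging peaks that overlapped by 1 bp or more in the 8 Foxa peak lists into 24999 regions and keeping those with a peak in exactly 7 lists. This gave 1037 regions, 4.15% of all regions. They lie between 529 regions with a peak in all 8 lists and 978 regions with a peak in 6 lists. The presence of peaks in these lists chose the regions, so counts and ranks within the lists are given as a description, with no test.

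The Foxa proteins (Foxa1, Foxa2, Foxa3) act in the liver and gut lineages and are known as pioneer factors, which can bind their sites in closed chromatin. A winged-helix DNA-binding domain, much alike in the 3 proteins, recognises the forkhead motif, and the less similar N-terminal and C-terminal domains carry activation functions. The C-terminal domain of Foxa1 is also known to contact core histones. Any of the 3 proteins, together with the nuclear receptor Hnf4alpha, can turn mouse fibroblasts into induced hepatocyte-like (iHep) cells.

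All cells were iHep cells made from C57BL/6 mouse embryonic fibroblasts of embryos at 13.5 days post coitum, and all had received Hnf4alpha by infection together with 1 Foxa construct. Foxa1-N3 is Foxa1 whose N-terminal domain comes from Foxa3, in Foxa1-C3 the C-terminal domain does, and Foxa2-N3 and Foxa2-C3 are the matching forms of Foxa2. Foxa3-N1 and Foxa3-N2 are Foxa3 with the N-terminal domain of Foxa1 or Foxa2, and Foxa3-C1 and Foxa3-C2 are Foxa3 with the C-terminal domain of Foxa1 or Foxa2. Chromatin was precipitated with a Foxa3 antibody for Foxa1-N3, Foxa2-N3, Foxa3-C1 and Foxa3-C2, with a Foxa1 antibody for Foxa1-C3 and Foxa3-N1, and with a Foxa2 antibody for Foxa2-C3 and Foxa3-N2. The antibody thus followed the N-terminal domain. Each construct had 1 ChIP library and 1 peak list, so no value has a replicate, and construct, antibody, protein level and sequencing depth cannot be told apart. Depth is unknown, because the files list peaks and not reads. No marker gene was examined, since peaks were not assigned to genes.

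Most regions with 7 peaks lacked the peak of Foxa1-N3, the shortest list with 956 peaks. They numbered 882, or 85.1% (95% Wilson interval 82.8 to 87.1%, counting error only), and made up 62.5% of the 1411 regions that carried a peak in all 7 other lists. Foxa1-C3, with 4807 peaks, was missing from 75 regions, 12.4% of those in the 7 other lists. Foxa3-C2, with 3594 peaks, was missing from 39 regions (6.87%), and Foxa2-N3, with 5230 peaks, from 15 (2.76%). The 4 longer lists were each missing from few. Foxa2-C3 (13715 peaks) lacked 8 regions (1.49%), Foxa3-N1 (7625 peaks) lacked 8 (1.49%), Foxa3-N2 (16543 peaks) lacked 7 (1.31%) and Foxa3-C1 (7533 peaks) lacked 3 (0.564%). The number of missing regions therefore fell with list length only in part: Foxa1-C3 lacked more regions than the shorter Foxa3-C2, and Foxa3-C1 lacked fewer than lists of about the same or a greater length, although these last counts are small (3 against 7 or 8).

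**Figure D1:**
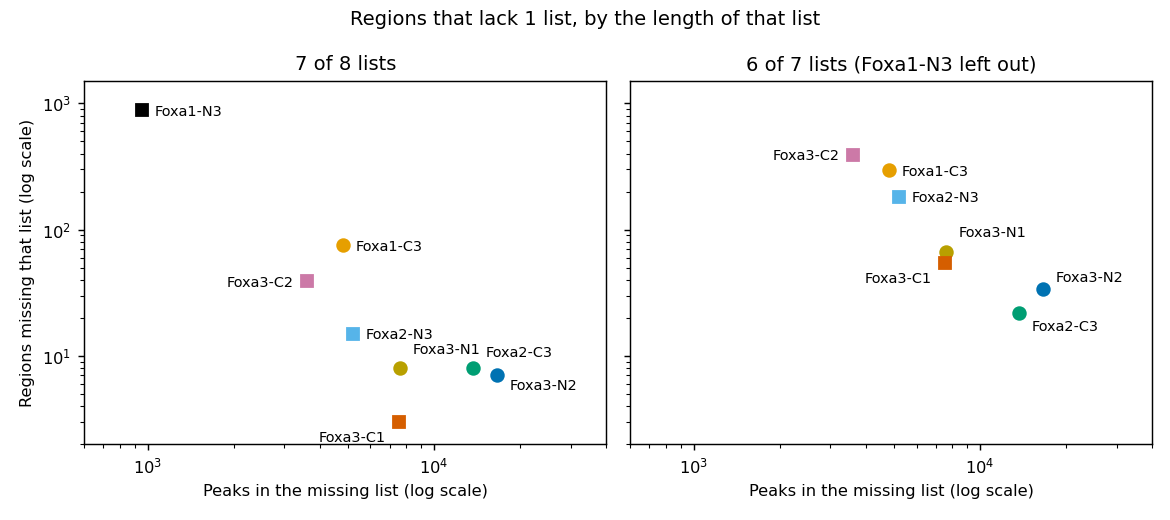
Number of regions that lacked a list (vertical axis, log scale) against the number of peaks in that list (horizontal axis, log scale), with 1 point per construct. Squares are constructs with the Foxa3 N-terminal domain and circles those with the Foxa3 C-terminal domain. On the left, regions of 7 of 8 lists, with Foxa1-N3 at 882 regions and Foxa1-C3 (75) above the shorter Foxa3-C2 (39). On the right, regions of 6 of the 7 lists left without Foxa1-N3, where Foxa3-C2 (389) lies above Foxa1-C3 (294).

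To separate sites ranked beyond the length of the missing list from strong sites, each peak was ranked by the authors' score within its own list, with rank 1 for the highest score. The relative rank is this rank divided by the number of peaks in the list, so that 0 is the strong end and 1 the weak end. A region was called a short-list loss when its median rank over the 7 holding lists was larger than the number of peaks in the missing list. It was called a strong site lost when its median rank was within that number and its median relative rank was at most 0.25. By these definitions 647 regions were short-list losses, 312 were strong sites lost by 1 construct and 78 were weaker sites within the length of the missing list. The 312 strong sites are 19.9% of the 1566 regions found in 7 or 8 lists. Foxa1-N3 accounted for 646 of the 647 short-list losses and for 236 of the strong sites. Of the 882 regions without Foxa1-N3, however, 497 had a median relative rank of at most 0.25. Many of its short-list losses thus also met the relative rank limit for strong sites, and the class does not mean a weak site. Regions that lacked Foxa3-C1, Foxa3-N1, Foxa2-C3 or Foxa3-N2 could not be short-list losses. Most of their holding lists had at most 5230 peaks, so their median rank always lay within the missing list's length (7533 peaks or more). Regions that lacked Foxa1-N3 could hardly be weaker sites, and 0 were. A median rank within 956 is also a small share of the holding lists, which had 3594 peaks or more. Class counts are therefore not alike in meaning across missing lists. Among the 155 regions that lacked a list other than Foxa1-N3, 76 were strong sites, 78 were weaker sites and 1, missing from Foxa3-C2, was a short-list loss. The number of strong sites depends on how strength is set: it was 152 with a relative rank limit of 0.10, and 32 when the largest rank of the 7 replaced the median. Of the 155 regions that lacked a list other than Foxa1-N3, 2 had a relative rank of at most 0.25 in every holding list.

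**Figure D2:**
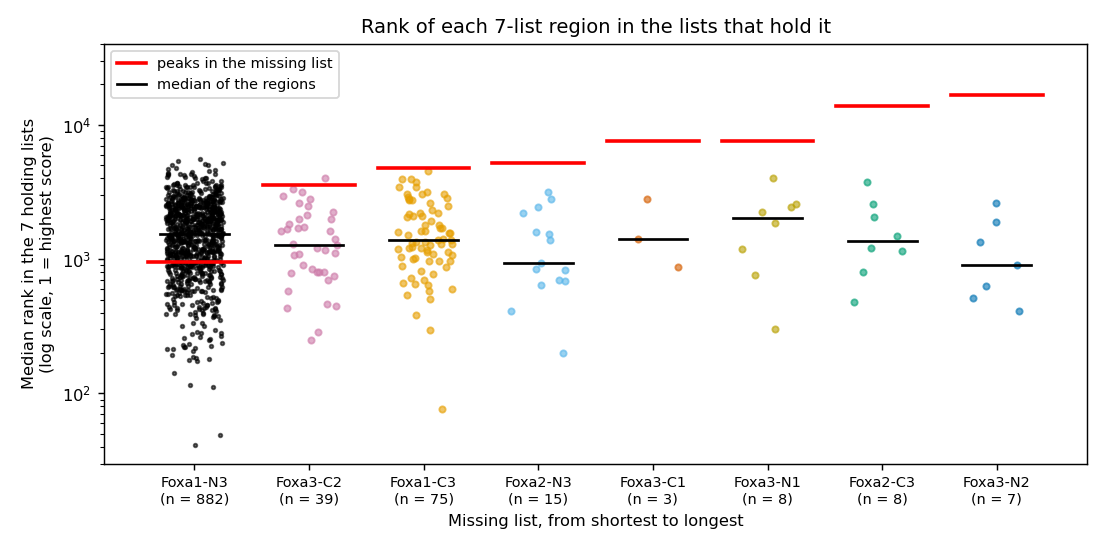
Median rank of each of the 1037 regions over the 7 lists that held it (vertical axis, log scale; 1 is the highest score), grouped by the missing list from the shortest to the longest. Each point is a region, black lines are medians and red lines mark the number of peaks in the missing list. In the Foxa1-N3 group most points lie above the red line (646 of 882), whereas in the other groups all but 1 lie below it. For Foxa3-C1, Foxa3-N1, Foxa2-C3 and Foxa3-N2 no point could lie above it, because most of the holding lists were shorter than the missing list.

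Regions missing from Foxa1-N3 spanned the whole range of strength. Their median rank in the 7 holding lists ran from 41 to 5587, with a median of 1536 and quartiles of 920 and 2326. The strongest lay on chromosome 5 (68381355 to 68382234 on mm9). It ranked 13 in Foxa1-C3, 14 in Foxa3-C1, 39 in Foxa3-N2, 41 in Foxa2-N3, 55 in Foxa3-C2, 79 in Foxa3-N1 and 80 in Foxa2-C3, with authors' scores from 65.0 to 252. This region was thus among the 80 highest peaks of every other construct, and the nearest Foxa1-N3 peak lay 1251176 bp away. A region on chromosome 10 (121239298 to 121239954) ranked 7 in Foxa3-N2, 8 in Foxa2-C3, 44 in Foxa2-N3, 49 in Foxa1-C3, 81 in Foxa3-N1, 174.5 in Foxa3-C2 and 276 in Foxa3-C1. The lists made with the Foxa2 antibody ranked it best and both Foxa3 constructs with a swapped C-terminal domain ranked it lowest. Another on chromosome 10 (120284275 to 120284895) ranked from 27 in Foxa3-N1 to 520 in Foxa2-N3, with a median rank of 141.

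In 30 of the 882 regions every one of the 7 ranks was within 956, the length of the Foxa1-N3 list. Beyond the 3 regions named above, these included a region on chromosome 5 (99713314 to 99714085; ranks from 56 to 710), another on chromosome 2 (110054370 to 110055452; 89 to 539) and another on chromosome 13 (99246196 to 99246856; 118 to 417.5). Further ones lay on chromosome 12 (75312694 to 75313434; 48 to 673.5), on chromosome 15 (54964623 to 54965262; 85 to 428.5) and on chromosome 7 (82778290 to 82778938; 33 to 551.5). The regions in the preceding pair of sentences were chosen after their values were seen. At the other end of the range lay a region on chromosome 6 (6134995 to 6135736) that had the highest median relative rank of all 1037 regions, 0.887. It ranked between 3187 and 13127.5 and carried scores from 7.94 to 13.1, close to the lowest score of any list (5.11).

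The 882 regions stood highest in the lists made with the Foxa2 antibody. Their median relative rank was 0.102 in Foxa3-N2 and 0.107 in Foxa2-C3, then 0.211 in Foxa3-N1, 0.228 in Foxa3-C1, 0.279 in Foxa2-N3, 0.287 in Foxa1-C3 and 0.379 in Foxa3-C2. This is the order of the list lengths, from longest to shortest, and a given rank is a smaller share of a longer list. The best relative rank fell in Foxa3-N2 or Foxa2-C3 in 587 of the 882 regions, 66.6% (63.4 to 69.6%). In the regions of all 8 lists, with Foxa1-N3 left aside, it did so in 299 of 529, 56.5% (52.3 to 60.7%). Foxa3-C2, which carries the same Foxa3 N-terminal domain and antibody as Foxa1-N3, gave the weakest relative rank in 33.3% of the 882 regions.

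Among sites of median relative rank up to 0.10 in the 7 other lists, 151 lacked a Foxa1-N3 peak and 317 had one. The regions without the peak were the weaker ones even within this strong class, with a median relative rank of 0.066 against 0.0424 for those with it. The difference had the same direction in each of the 7 lists. As a ratio of medians, without over with the peak, it was smallest in Foxa1-C3 (1.22; 0.0692 and 0.0566) and Foxa3-N2 (1.34; 0.0333 and 0.0249). It was largest in Foxa3-N1 (1.99; 0.0631 and 0.0317) and Foxa2-N3 (1.98; 0.0897 and 0.0453). Region width differed little, with medians of 675 bp without and 721 bp with the Foxa1-N3 peak. A lower place in the other lists therefore went with absence from Foxa1-N3 at the strong end as well.

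After Foxa1-N3, Foxa1-C3 lacked the most regions. All 75 had a median rank within its 4807 peaks, and 36 (48%) were strong sites. In 28 of the 75 every one of the 7 ranks lay within that length. The strongest lay on chromosome 9 (123461945 to 123462747). It ranked 34 in Foxa3-C1, 45 in Foxa3-C2, 61 in Foxa3-N1 and 76 in Foxa1-N3. In Foxa2-N3 its rank was 475.5, in Foxa2-C3 540.5 and in Foxa3-N2 4321. Foxa3-N1, which has the same N-terminal and C-terminal domains as Foxa1-C3 and was precipitated with the same antibody, was thus among the lists with a high rank, and the nearest Foxa1-C3 peak lay 120183 bp away. A region on chromosome 13 (34694670 to 34695332) ranked 35 in Foxa1-N3, 173 in Foxa3-C1, 282 in Foxa2-N3 and 295 in Foxa3-N1. The same region ranked 2460 in Foxa3-C2, 3525 in Foxa2-C3 and 4043.5 in Foxa3-N2, so the strong and the weak lists lay far apart. The region on chromosome 15 (6209847 to 6211089) ranked from 110 in Foxa3-N1 to 2120 in Foxa3-C2, with a median rank of 698.

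As a group, the 75 regions had a median relative rank of 0.183 in Foxa3-N1, the lowest of the 7 lists, 0.200 in Foxa2-N3, 0.223 in Foxa3-C1, 0.247 in Foxa2-C3 and 0.269 in Foxa3-N2. It was highest in the 2 shortest lists, at 0.387 in Foxa3-C2 and 0.562 in Foxa1-N3. The Foxa2-C3 and Foxa3-N2 medians compare with 0.107 and 0.102 in the regions missing from Foxa1-N3 and with 0.0367 and 0.0520 in the regions of all 8 lists. Foxa3-N1 gave the best relative rank in 22 of the 75 regions. The corresponding number was 17 in Foxa3-C1, 15 in Foxa2-N3, 10 in Foxa2-C3, 9 in Foxa3-N2 and 1 each in Foxa1-N3 and Foxa3-C2. Every other construct thus ranked some of these sites best, but the share of the Foxa2 antibody lists (19 of 75) was small beside their share in the 882 regions without a Foxa1-N3 peak.

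**Figure D3:**
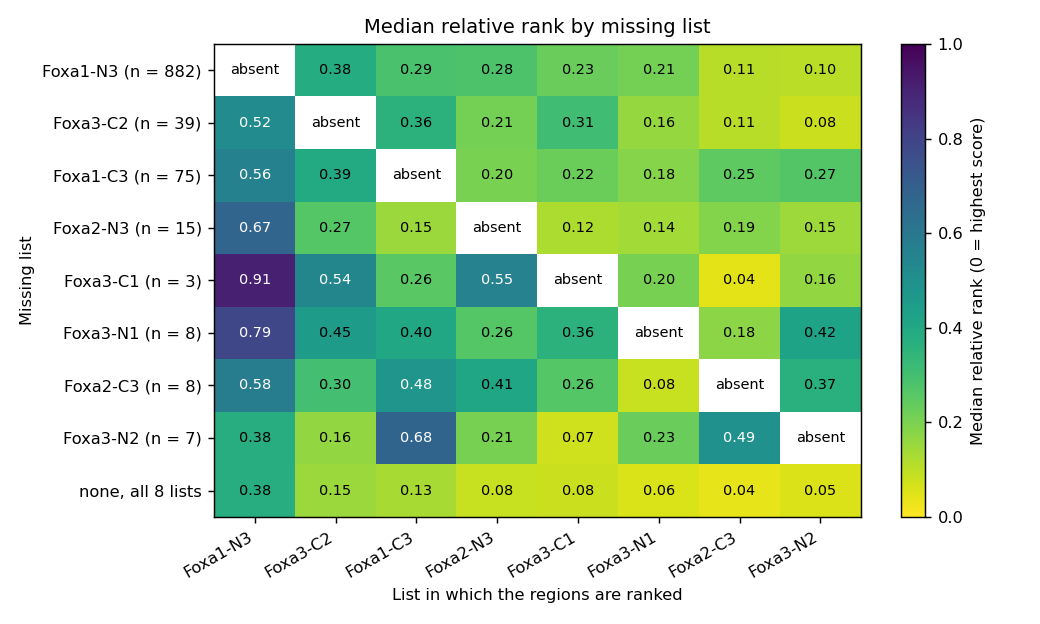
Median relative rank (colour and printed value; 0 is the strong end) of the regions that lack a given list (rows, with the number of regions) in each list that holds them (columns); white cells are the missing list. Rows and columns run from the shortest to the longest list, and the last row shows the 529 regions of all 8 lists. Regions without Foxa1-C3 have higher values in Foxa2-C3 and Foxa3-N2 (0.25 and 0.27) than regions without Foxa1-N3 (0.11 and 0.10).

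Regions missing from Foxa3-C2, like those missing from Foxa1-N3, ranked best in the lists made with the Foxa2 antibody. Among these 39 regions, 22 were strong sites and 16 were weaker sites within its length. Their median relative rank was 0.0787 in Foxa3-N2 and 0.108 in Foxa2-C3, the lowest of the 7 lists, and these 2 lists gave the best relative rank in 16 and 11 regions. Both are the longest lists. They also had the lowest medians in regions missing from Foxa1-N3 (0.102 and 0.107) and in regions of all 8 lists (0.0520 and 0.0367). In Foxa3-C1, which differs from Foxa3-C2 in the C-terminal domain alone and was mapped with the same antibody, the median was 0.306, and 1 of the 39 regions had its best relative rank there. The strongest of these regions lay on chromosome 3 (62237396 to 62238125). It ranked 26 in Foxa3-N2, 64 in Foxa1-C3, 77 in Foxa3-N1, 249.5 in Foxa2-C3, 255 in Foxa2-N3, 420 in Foxa1-N3 and 647 in Foxa3-C1. By relative rank the weakest list was Foxa1-N3 (0.439), followed by Foxa3-C1 (0.0859), and the Foxa3-C2 list reached down to rank 3594 without a peak there. Regions on chromosome 9 (42082997 to 42083642; ranks from 40 in Foxa3-N1 to 1650 in Foxa1-C3) and chromosome 16 (90821033 to 90821848; ranks from 227 in Foxa3-N1 to 969.5 in Foxa3-C1) came next.

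Foxa2-N3 lacked 15 regions, of which 10 were strong sites. The strongest lay on chromosome 11 (81620599 to 81621352). It ranked 31 in Foxa2-C3, 71 in Foxa1-C3, 169.5 in Foxa1-N3, 201.5 in Foxa3-C1, 236 in Foxa3-N2, 376 in Foxa3-C2 and 1207 in Foxa3-N1. Foxa2-C3, which shares the Foxa2 DNA-binding domain with Foxa2-N3, was the list that ranked it best. Over the 15 regions, however, Foxa2-C3 gave the best relative rank in 2, against 6 in Foxa3-N1, 3 each in Foxa3-N2 and Foxa3-C1 and 1 in Foxa1-C3. The regions on chromosome 17 (24281134 to 24281743) and chromosome 9 (72462399 to 72463019) had narrower ranges, 190 to 1324 and 247.5 to 1708, and by relative rank each was weakest in Foxa1-N3 (0.431 and 0.259). Across the 15 regions the median relative rank was 0.674 in Foxa1-N3 and 0.265 in Foxa3-C2, the 2 shortest lists, and ran from 0.125 in Foxa3-C1 to 0.187 in Foxa2-C3 in the 5 others.

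The 4 longest lists together lacked 26 of the 1037 regions, and 8 of these were strong sites. Foxa2-C3 lacked 8 regions, of which 1 was a strong site, on chromosome 16 (93591549 to 93592185). It ranked 15 in Foxa3-N1, 104 in Foxa3-C2, 377 in Foxa3-C1, 478.5 in Foxa1-N3, 552 in Foxa2-N3, 1031 in Foxa1-C3 and 3873 in Foxa3-N2. Foxa3-N1 held the best relative rank in 7 of the 8 regions without Foxa2-C3, with ranks from 15 to 2232 in a list of 7625. The other named regions of this group, on chromosome 5 (87154376 to 87155045) and chromosome 9 (41908692 to 41909717), had median relative ranks of 0.255 and 0.310, above the limit for strong sites. On chromosome 9 a Foxa2-C3 peak lay 1461 bp from the region, and on chromosome 16 one lay 2531 bp away.

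Foxa3-N2, the longest list, lacked 7 regions, of which 4 were strong sites. All 7 had a relative rank of at most 0.25 in Foxa3-C1, with a median of 0.0727, and that list gave the best relative rank in 5 of them. The 3 other constructs with the Foxa3 C-terminal domain differed from each other, with medians of 0.677 in Foxa1-C3, 0.493 in Foxa2-C3 and 0.230 in Foxa3-N1. A region on chromosome 12 (100444997 to 100445739) ranked 119 in Foxa3-N1, 214 in Foxa3-C1, 387 in Foxa2-N3, 413 in Foxa3-C2 and 428 in Foxa1-N3. It ranked 4100 in Foxa1-C3 and 6898.5 in Foxa2-C3. As relative ranks these were 0.853 in Foxa1-C3, 0.503 in Foxa2-C3 and 0.448 in Foxa1-N3, against 0.0156 to 0.115 in the 4 others. Foxa2-C3, which has the same N-terminal and C-terminal domains as Foxa3-N2 and shared its antibody, thus placed the region in the middle of its list. The regions on chromosome 8 (13131573 to 13132216; ranks from 140 in Foxa3-C1 to 1512 in Foxa3-N1) and chromosome 4 (3382881 to 3383341; ranks from 224.5 in Foxa1-N3 to 8660 in Foxa2-C3) followed.

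Foxa3-N1 lacked 8 regions, of which 2 were strong sites. The regions on chromosome 6 (19686268 to 19686933) and chromosome 4 (77383633 to 77384669) had median ranks of 760.5 and 1190. A region on chromosome 2 (169567836 to 169568651) ranked 31 in Foxa3-C1, 44 in Foxa3-C2, 300.5 in Foxa1-N3 and 277 in Foxa2-N3, but 2028 in Foxa1-C3, 3647 in Foxa2-C3 and 15931 in Foxa3-N2. By relative rank it was strong in Foxa3-C1 (0.00412), Foxa3-C2 (0.0122) and Foxa2-N3 (0.0530), lay at 0.266 in Foxa2-C3, 0.314 in Foxa1-N3 and 0.422 in Foxa1-C3, and stood near the end of the Foxa3-N2 list (0.963). Foxa3-C1 lacked 3 regions. The region on chromosome X (156519053 to 156519829) was the strong site among them. The 4 constructs with a Foxa3 C-terminal domain ranked it 74 (Foxa3-N2), 187.5 (Foxa2-C3), 492.5 (Foxa1-C3) and 1112 (Foxa3-N1). It ranked 872.5 in Foxa1-N3, 2174 in Foxa3-C2 and 4926 in Foxa2-N3. The other 2 regions, on chromosome 12 (112772897 to 112773582) and chromosome 1 (79718143 to 79718681), had median relative ranks of 0.255 and 0.541. On chromosome 1 the Foxa1-N3 peak was the last of that list, at rank 956.

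For every list, the share of regions without a peak grew from each class of strength in the 7 other lists to the next weaker one, although for the longest lists these shares rest on a few regions. Foxa1-N3 lacked 32.3% (28.2 to 36.6%) of the 468 regions with a median relative rank up to 0.10, 70.5% of those from 0.10 to 0.25, 83.5% of those from 0.25 to 0.50 and 95.4% of those above 0.50. Foxa1-C3 lacked 0.997% (0.340 to 2.89%) of 301 regions in the strongest of these classes, 17.4% (12.6 to 23.4%) of 190 in the next, 29.6% of 98 in the next and 66.7% of 15 in the weakest. Foxa1-C3 thus kept nearly all of the strongest sites and lost peaks from relative rank 0.10 on. Foxa3-C2 lacked 1.95% (0.899 to 4.2%) of 307 regions in the strongest class and 9.47% (5.91 to 14.8%) of 169 in the next, and Foxa2-N3 lacked 0.719% of 278 and 4.65% of 172. Foxa2-C3, Foxa3-N1, Foxa3-N2 and Foxa3-C1 lacked 0 of 256, 263, 261 and 280 regions in the strongest class, with upper Wilson limits from 1.35 to 1.48%. In the class from 0.10 to 0.25 the 4 longest lists lacked 0.559 to 2.20% (highest upper limit 5.51%), and the upper limit of Foxa2-N3 was 8.91%. The intervals give counting error over regions of 1 library per construct, and differences between constructs were not tested. Apart from Foxa1-N3 itself, each list was judged only on regions with a Foxa1-N3 peak.

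**Figure D4:**
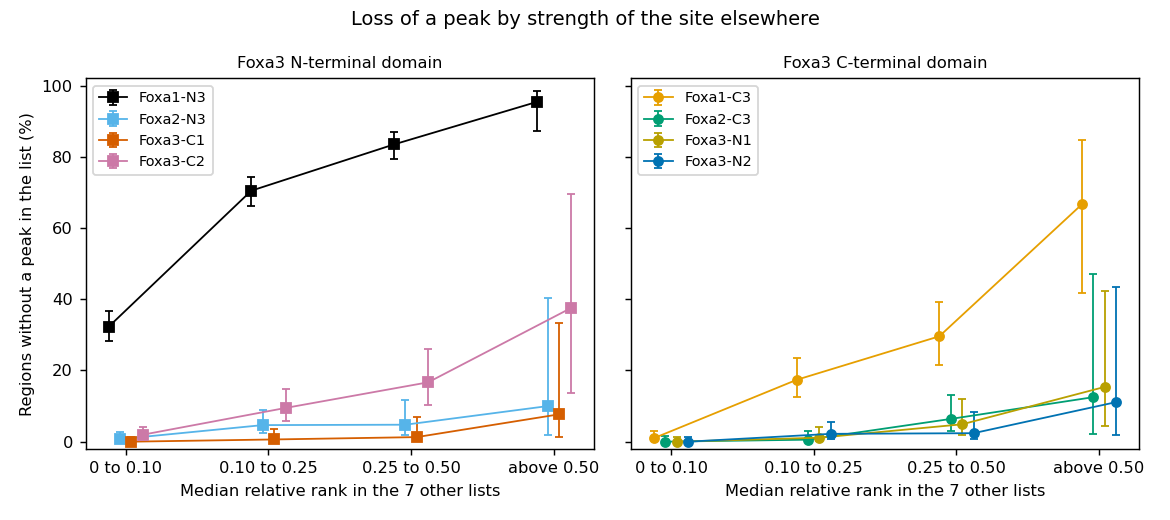
Share of regions without a peak in a given list (vertical axis, per cent) among regions with a peak in all 7 other lists, by their median relative rank there (horizontal axis, strong to weak); bars are 95% Wilson intervals for counting error. Constructs with the Foxa3 N-terminal domain are on the left and those with the Foxa3 C-terminal domain on the right. Foxa1-N3 starts at 32.3%, and all others start at 1.95% or less.

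The 155 regions that lacked another list all had to carry 1 of the 956 peaks of Foxa1-N3. With the Foxa1-N3 list left out, 1411 regions had a peak in all 7 remaining lists and 1041 in 6 of them. Foxa3-C2 was then missing from 389 regions, Foxa1-C3 from 294, Foxa2-N3 from 181, Foxa3-N1 from 67, Foxa3-C1 from 54, Foxa3-N2 from 34 and Foxa2-C3 from 22. In this setting Foxa3-C2 was missing more often than the longer list of Foxa1-C3, so the higher number for Foxa1-C3 was seen only among sites with a Foxa1-N3 peak. Strong sites numbered 127 for Foxa3-C2, 66 for Foxa2-N3 and 64 for Foxa1-C3, and from 8 to 17 for each of the 4 longest lists. Their total was 306, against 76 for the same constructs with all 8 lists. The 312 strong sites found with 8 lists included 236 lost by Foxa1-N3.

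Lists cut to the same length gave another order. With the 956 strongest peaks of each list, 147 regions were in all 8 and 120 in exactly 7. Foxa1-N3 was missing from 30 of these (25%), Foxa3-N2 from 25, Foxa3-C1 from 24, Foxa3-C2 and Foxa2-N3 from 11 each, Foxa1-C3 and Foxa2-C3 from 7 each and Foxa3-N1 from 5. Foxa3-N2 and Foxa3-C1, which seldom lacked a region with full lists, thus came next to Foxa1-N3 once their longer lists were cut. With the 3594 strongest peaks of the 7 lists other than Foxa1-N3, 505 regions lacked 1 list. Foxa3-N2 was missing from 110, Foxa3-C1 from 89, Foxa3-C2 from 85, Foxa2-N3 from 76, Foxa1-C3 from 63, Foxa3-N1 from 47 and Foxa2-C3 from 35. In both settings Foxa3-N2 was missing from more regions than Foxa2-C3, the construct with the same N-terminal and C-terminal domains, and Foxa1-C3 no longer stood out.

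**Figure D5:**
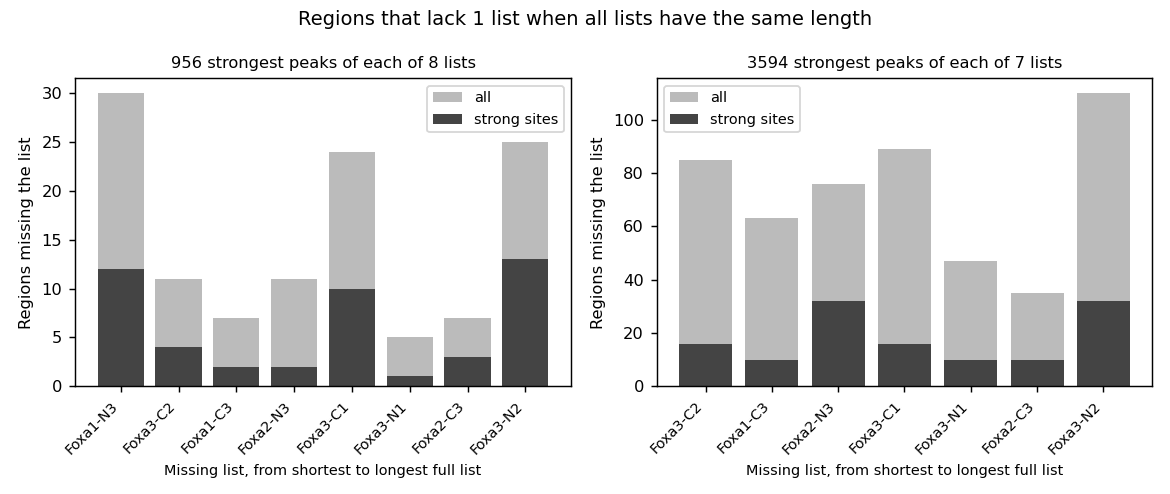
Regions that lack 1 list when every list is cut to the same number of its strongest peaks (left, 8 lists of 956; right, 7 lists of 3594 without Foxa1-N3). Grey bars count all such regions per missing list and dark bars the strong sites among them, with relative ranks taken in the cut lists. Foxa3-N2, the longest full list, has 25 regions on the left and the highest bar, 110, on the right.

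The peaks that make up a region lay close together. In 1030 of the 1037 regions at least 1 base was covered by a peak of all 7 lists, and 29 regions held more than 1 peak of a list. The midpoints of the 7 peaks spread over a median of 88 bp, against 80 bp for the 8 peaks of regions in all lists, and by at most 200 bp in 92.7% and 93.4% of the regions. Region width had a median of 646 bp (quartiles 592 and 746 bp, range 459 to 1540 bp), between 697 bp in regions of all 8 lists and 606.5 bp in regions of 6 lists. The median over regions of the median relative rank was ordered likewise, with 0.230 in 7 lists, 0.0956 in 8 lists and 0.367 in 6 lists. Width and rank thus both placed regions of 7 lists between their neighbours. A region spans all its merged peaks, however, so its width can grow with the number of lists that chose it.

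Regions of 7 lists took a different share of each list. They held 1003 of the Foxa3-C2 peaks (27.9%), 969 of Foxa1-C3 (20.2%), 1025 of Foxa2-N3 (19.6%), 155 of Foxa1-N3 (16.2%), 1040 of Foxa3-C1 (13.8%), 1037 of Foxa3-N1 (13.6%), 1035 of Foxa2-C3 (7.55%) and 1044 of Foxa3-N2 (6.31%). In Foxa1-N3 a further 532 peaks, 55.6% of the list, lay in regions of all 8 lists, against 3.23% in Foxa3-N2. A region of all 8 lists lay within 10 kb of 43 of the 1037 regions, 4.15% (3.09 to 5.54%), against 2.14% of all regions. Another region of exactly 7 lists lay within that distance of 66 of them, 6.36% (5.03 to 8.02%), against 4.14% of all regions. For regions of all 8 lists these shares were 2.65% (1.58 to 4.39%) and 7.75% (5.76 to 10.3%). Regions of exactly 6 lists had 3.27% (2.33 to 4.58%) and 6.65% (5.25 to 8.38%), so the values were not particular to regions of 7 lists.

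A ninth ChIP library, titled 4a3_DA1 and labelled as Foxa1 with Hnf4alpha and an Hnf4alpha antibody, took no part in choosing the regions. Its title conflicts with its other labels, so the Foxa construct in these cells is uncertain. The library had 698 peaks. Of the 1037 regions, 7 carried such a peak, 0.675% (0.327 to 1.39%), against 0.868% of all regions and 3 of 529 (0.567%) in all 8 lists. The interval covered the share found in all regions. The 7 regions, named after their values were seen, were mostly wide: 6 were among the 69 regions over 1000 bp, and 1 was among the 968 narrower ones. The same split is not given for all regions, so it cannot be read as particular to regions of 7 lists. Of the 7 regions, 4 lacked Foxa1-N3 and 3 lacked Foxa1-C3, on chromosome 12 (55797473 to 55798658), chromosome 15 (3220586 to 3221620) and, the last of them, chromosome 8 (96910866 to 96911918). The lowest median relative rank of the 7 was 0.0233 (median rank 112), in a region without Foxa1-N3 at 62938781 to 62939794 of chromosome 9. This was a strong site, and its highest relative rank was 0.348, in Foxa2-N3. The rest of those without Foxa1-N3 were short-list losses, with median relative ranks from 0.207 to 0.421. All 3 that lacked Foxa1-C3 were also strong sites by their median relative rank (0.104 to 0.173), but each was weak in some lists. That on chromosome 12 ranked 39 in Foxa3-C2, 51 in Foxa3-C1, 384.5 in Foxa1-N3, 663 in Foxa2-N3, 2858.5 in Foxa2-C3, 2866.5 in Foxa3-N2 and 4630 in Foxa3-N1. The highest relative rank was 0.607 on chromosome 12, 0.932 on chromosome 15 and 0.860 on chromosome 8.

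Few regions were on the edge of the definition. In 6 of the 1037 the missing list had a peak within 1 kb without overlap. The nearest were Foxa1-N3 peaks at 400 bp from a region on chromosome 6 (29798769 to 29799405; median rank 1192), at 524 bp from one on chromosome 3 (30226205 to 30226865; 1160) and at 731 bp from one on chromosome 1 (75333068 to 75333670; 2790). All 3 were short-list losses. Just outside the definition, 886 of the 978 regions with 6 peaks (90.6%) lacked Foxa1-N3 and another list, which was Foxa3-C2 in 350, Foxa1-C3 in 219 and Foxa2-N3 in 166. The most frequent pair without Foxa1-N3 was Foxa1-C3 with Foxa3-C2, at 35 regions.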

How the data were processed

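ChIP-seq peak lists of 9 libraries were used; the input libraries were not analysed here. The submitters' processing notes name the build mm9 and, with no role given, bedtools 2.16.2, BWA 0.6.2 and MACS2 2.1.0; no source used here states the settings. Each deposited list gives, without a header, chromosome, start, end, name and a score of unstated kind. The authors' score served to rank peaks within a list and, in 1 alternative setting, to keep peaks above the median score pooled over lists. Some scores are also quoted. Scores were coarse (18597 distinct values within lists for 60003 peaks), and ties took the average rank.

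Starts were converted to count from 1. Where a region held several peaks of a list, the best rank was used. Merging gave the same 24999 regions as bedtools 2.31.1. Simulated lists with planted scores set far apart checked only the missing list and whether a site was called strong. The split between short-list losses and weaker sites, and the handling of ties, were not checked there. Scripts ran under Python 3.11.15 with scipy 1.17.1, pandas 2.3.3, numpy 2.4.6 and matplotlib 3.10.9. Named regions were the 3 with the lowest median relative rank for each missing list, the lowest and highest of all, and the 3 nearest to a peak of the missing list; others are marked. Region definition, classes and named-region rule were chosen with earlier results of these data known. Alternatives covered score, merging distance, list length, ties, the limit for strong sites and leaving out each construct. The planned motif and gene features were not run, since the gene table used here is on GRCm38 and the peaks are on mm9.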

Additional observations from a re-analysis of the deposited data

How the results depend on the processing

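Merging peaks up to 1 kb apart and asking for a base covered by all 7 peaks left the counts of regions and of strong sites within 1.5 times the values reported. Other handling of ties, a relative rank limit of 0.50 and asking for no nearby peak of the missing list did so for the strong sites, the count recomputed there. Leaving out 1 construct at a time gave 1041 to 1397 regions that lacked 1 list, 84.6 to 88.3% without Foxa1-N3 and 268 to 306 strong sites lost. Peaks above the pooled median score (19.2) gave 481 regions, 94.4% without Foxa1-N3 and 57 strong sites. Score ranges differed by list, with a highest score of 104 in Foxa1-N3 and from 202 to 406 in the others. A common cut therefore need not be equally strict in each list. The 956 strongest peaks of each list gave 120 regions, 25% without Foxa1-N3 and 47 strong sites; fewer peaks entered in both cases. The number of strong sites was 152 with a relative rank limit of 0.10 and 32 when the largest rank over the 7 lists replaced the median, both stricter by construction. Unknown depth and 1 library per construct limit every value. No paired analysis was possible because each construct had 1 library and no result comes from a test.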

Other observations

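Regions of 7 lists were spread over all chromosomes with peaks. Chromosome 3 had the highest share, 88 of 1598 regions (5.51%, 95% Wilson interval 4.49 to 6.74%), and chromosome X the lowest, 16 of 569 (2.81%; 1.74 to 4.52%), against 4.18% (3.94 to 4.44%) over the autosomes. Chromosome X held 2 of the 529 regions of all 8 lists. These shares were not tested.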
